A study of Mus musculus with 2 samples.

Results

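The integrin, laminin and nidogen genes were examined in salivary gland epithelial cells of young and aged mice. The members were all genes on the array whose names follow the patterns of integrin alpha chains (Itga), integrin beta chains (Itgb), laminin chains (Lama, Lamb, Lamc) and nidogens (Nid), without regard to their signal. The patterns took 39 genes, read by 100 probes, of the 37003 genes on the array. They were divided into 5 leukocyte integrins (Itgal, Itgam, Itgax, Itgb2 and Itgb7), 21 other integrins, and 13 laminins and nidogens.

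Female C57BL/6 mice (C57BL/6N per the study's methods) gave the submandibular glands, from which cells were taken by positive magnetic selection for EpCAM (CD326), a surface protein of epithelial cells, and their RNA was labelled with Cy3 and read on 1-colour Agilent arrays. A young mouse of 9 weeks and an aged mouse of 24 months gave 1 array each, with 1 mouse per age by the study's design. Per the study's methods, young mice came from a breeder and aged mice from an institute's own facility, so age and origin cannot be told apart. With 1 array per age there was no replicate and no test, every p-value was left out, and each ± is the error that the image software gives for a signal on its own array, which holds no spread between mice.

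Integrins are receptors of an alpha and a beta chain that bind matrix proteins or proteins of other cells. Laminins are secreted trimers of an alpha, a beta and a gamma chain that build the basement membrane under epithelia and around vessels, and nidogens link laminin to type IV collagen. In glandular epithelium, the laminin receptor of integrin alpha 6 and beta 4 anchors basal cells in hemidesmosomes, whereas the beta 2 chain encoded by Itgb2 is found on leukocytes, where it pairs with the chains of Itgal, Itgam or Itgax.

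A probe is a DNA sequence of 60 bases, and its processed signal is the background-corrected brightness of its spot in arbitrary units. Because a single probe stands for each gene, the sequences on which the leukocyte results turn are shown first, with 30 bases of each probe read from 5′ to 3′. Capitals mark runs of alternating C and A or T and G in the brightest probes of Itgam (the alpha M chain, CD11b) and Itgb7 (the beta 7 chain). No other member probe held such a run of at least 10 bases. Below them stand the second kept probes of the same genes and the brightest probes of Itgax (the alpha X chain, CD11c) and Itgb2.
Itgam, brightest probe, bases 1 to 30: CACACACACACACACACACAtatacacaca
Itgb7, brightest probe, bases 2 to 31: tttcctTGTGTGTGTGTGTGTGTcatgatt
Itgam, second probe, bases 1 to 30: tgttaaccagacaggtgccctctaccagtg
Itgb7, second probe, bases 1 to 30: atttttcagagtgaccttcagagggcagca
Itgax, brightest probe, bases 1 to 30: tcccatctacttttgcaacgttggaattga
Itgb2, only probe, bases 1 to 30: aaagctagagcatgagttatcataatcaag

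In the coordinates of the files (NCBI37, mm9), the Itgam probe with the run lies at chr7:135261755-135261814 and the second at chr7:135212140-135212199. The Itgb7 probe with the run lies at chr15:102061127-102061186 and is assigned to a predicted transcript, while the second, at chr15:102046450-102046509, is assigned to the curated RefSeq mRNA. The Itgax probe lies at chr7:135294052-135294111 and the Itgb2 probe at chr10:77027978-77028037. The files place the probes of Itgb7 on the minus strand and the others on the plus strand. The files name a gene and a transcript for each probe, but not whether the probe lies in coding sequence or in a UTR.

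A probe was kept where the image software marked it well above background on at least 1 array. The signal was divided by its array's 75th percentile, 256 in the young sample and 198 in the aged one, and differences are given as aged minus young on the log2 scale. The brightest kept probe, by its mean log2 signal over both arrays, stood for its gene. Of the 39 genes, 32 were kept. Both arrays measured 27 of them well above background, while 5 were so on the young array alone and 0 on the aged array alone. The genes without a kept probe were Itga2, Itga9, Itga11, Itgad, Itga2b, Lama1 and Lamc3. For a probe well above background on 1 array alone, the difference was given as a lower limit, with the lowest signal well above background (14.1 in the young sample and 14.3 in the aged one) or the probe's own signal, whichever was higher, in place of the dim value.

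A difference of at least 2-fold, measured or as a limit, was reached by 6 of the 32 kept members, each of them lower in the aged sample. These were Itgax, Itgb2, Itga4, Itga8, Lama2 and Lama3, and 0 members were at least 2-fold higher. Of all 21348 kept genes, 5.14% were at least 2-fold lower and 2.52% at least 2-fold higher. Of all genes past 2-fold 32.9% were higher, a share that was 48.1% with arrays centred on their medians and 17.7% with the level set on spike-in controls. The median difference of the 32 members was -0.42, against 0.06 over all genes, and 27 of 32 lay below 0, against 44.6% of all genes. Those below 0 include the 5 members kept on the young array alone, and such genes lean lower by how they were kept. For the 27 members well above background on both arrays the median was -0.25, against 0.09 over all such genes. There, 4 members were at least 2-fold lower, against 3.05% of such genes, and 0 were at least 2-fold higher, against 1.51%. Of these genes of the whole array, 40.1% lay below 0. With normexp background correction, Itgax alone stayed past 2-fold, and the sign of 15 of the 32 differences depended on the scaling, none of them at least 2-fold.

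**Figure D1:**
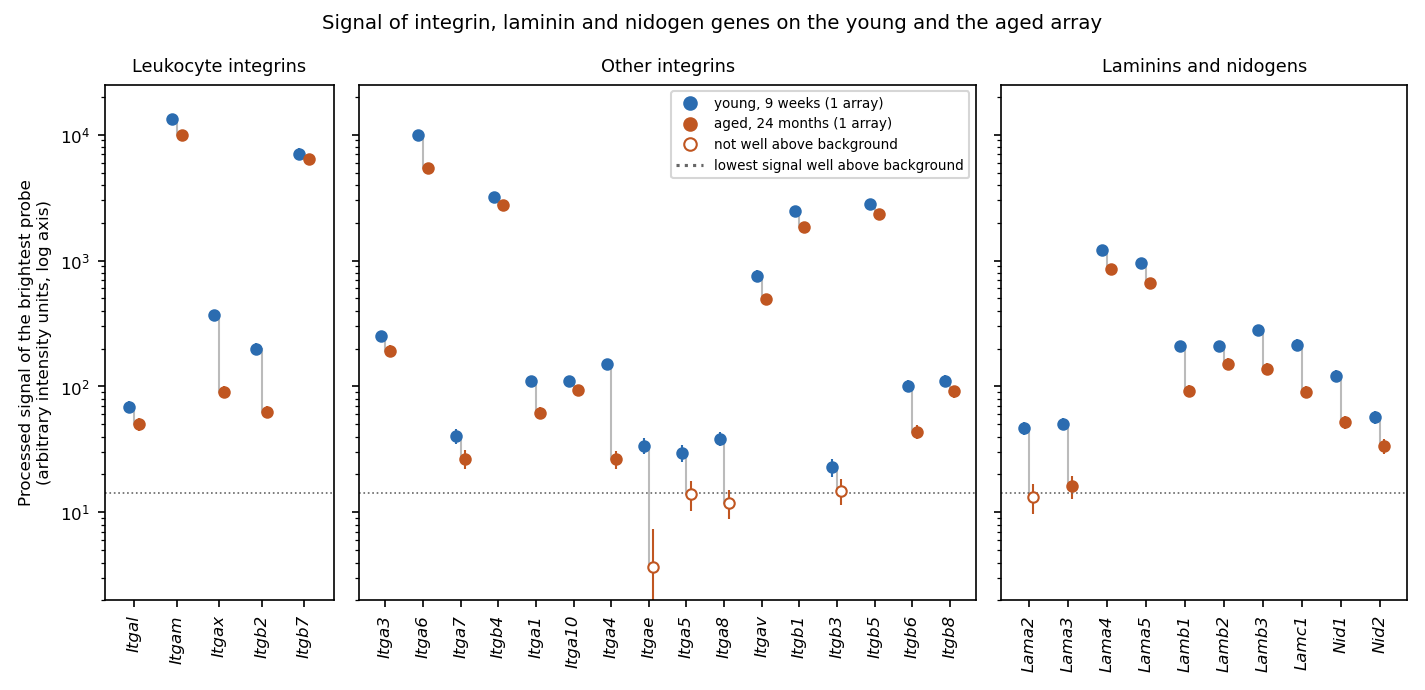
Processed signal (log axis, arbitrary units) of the brightest kept probe of kept genes on the young array (blue) and the aged array (orange), with the image software's error as bars. Open circles are signals not well above background, the dotted line is the lowest signal well above background (14.3), and brightness is not comparable between genes. The widest steps down among the filled pairs are those of Itga4, Itgax, Itgb2 and Lama3.

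The leukocyte integrins were read differently by different probes. Of the 5 genes, Itgax and Itgb2 were lower in the aged sample, and the brightest probes of Itgal, Itgam and Itgb7 differed little between the arrays. Their median was -0.09, with 2 of 5 at least 2-fold lower, against 5.14% of all genes.

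The signal of Itgax, which with the beta 2 chain forms the receptor CD11c/CD18 of dendritic cells and some macrophages, was 366 ± 36.8 in the young sample and 91.1 ± 9.67 in the aged one. This was 3.11-fold lower relative to the 75th percentile (difference -1.64 ± 0.21). A second Itgax probe, assigned to another transcript, was dim on both arrays, with 25.1 in the young sample and 26.0 in the aged one and a difference of 0.42 ± 0.36. Neither array measured the remaining Itgax probe well above background.

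Itgb2, the common beta chain of leukocyte integrins, had a single probe, with a signal of 200 ± 20.2 in the young sample and 62.8 ± 6.93 in the aged one. It was 2.46-fold lower in the aged sample (difference -1.30 ± 0.22). Both differences were several times the software's error, and the spread between mice is not known.

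Itgb7, whose product pairs with the alpha 4 or alpha E chain on lymphocytes, was read differently by its probes. The brightest, with the TG run, had 7073 in the young sample and 6372 in the aged one, a difference of 0.22 ± 0.20. That difference was close to the software's error and was -0.18 with quantile normalization, so it gave no direction. The probe of the curated mRNA had 179 in the young sample and 63.5 in the aged one, a difference of -1.13 ± 0.22. With the latter, Itgb7 was 2.18-fold lower in the aged sample and stood beside Itgax and Itgb2.

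Itgam had 13247 in the young sample and 9870 in the aged one at the probe with the CA run, a difference of -0.05 ± 0.20. Its second probe was near the background, with 19.1 on the young array and 11.6, not well above background, on the aged array. The signal of Itgam without a run was thus too dim to give a fold beyond a limit of 1.04-fold lower.

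Itgal, the alpha L chain of LFA-1 on lymphocytes, had 69.3 ± 7.73 in the young sample and 50.3 ± 6.10 in the aged one, a difference of -0.09 ± 0.24. The other kept Itgal probes had 23.2 and 15.0 on the young array and 24.6 and 26.4 on the aged array, with differences of 0.46 ± 0.36 and 1.19 ± 0.38. The last of these shares a stretch of 56 bases with the brightest probe. The brightest probe lies at chr7:134474706-134474766 and the other at chr7:134474708-134474767, both on the plus strand. Capitals in the lines below mark the start of the shared stretch.
Itgal, brightest probe, bases 1 to 30: ctgtCCACTGCTCTGTCTTTTATTAACAAT
Itgal, other probe, bases 1 to 30: gtcCCACTGCTCTGTCTTTTATTAACAATG

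These nearly identical Itgal probes differed by 1.28 in their log2 difference between the arrays. Across the array, 79 pairs of probes of 1 gene shared at least 50 bases and were measured above background at both ages. The median gap within a pair was 0.061. In the 59 pairs with every signal at 100 or more, 0 had a gap over 1, while among the 20 pairs with a lower signal 10% did. No direction was read for Itgal.

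**Figure D2:**
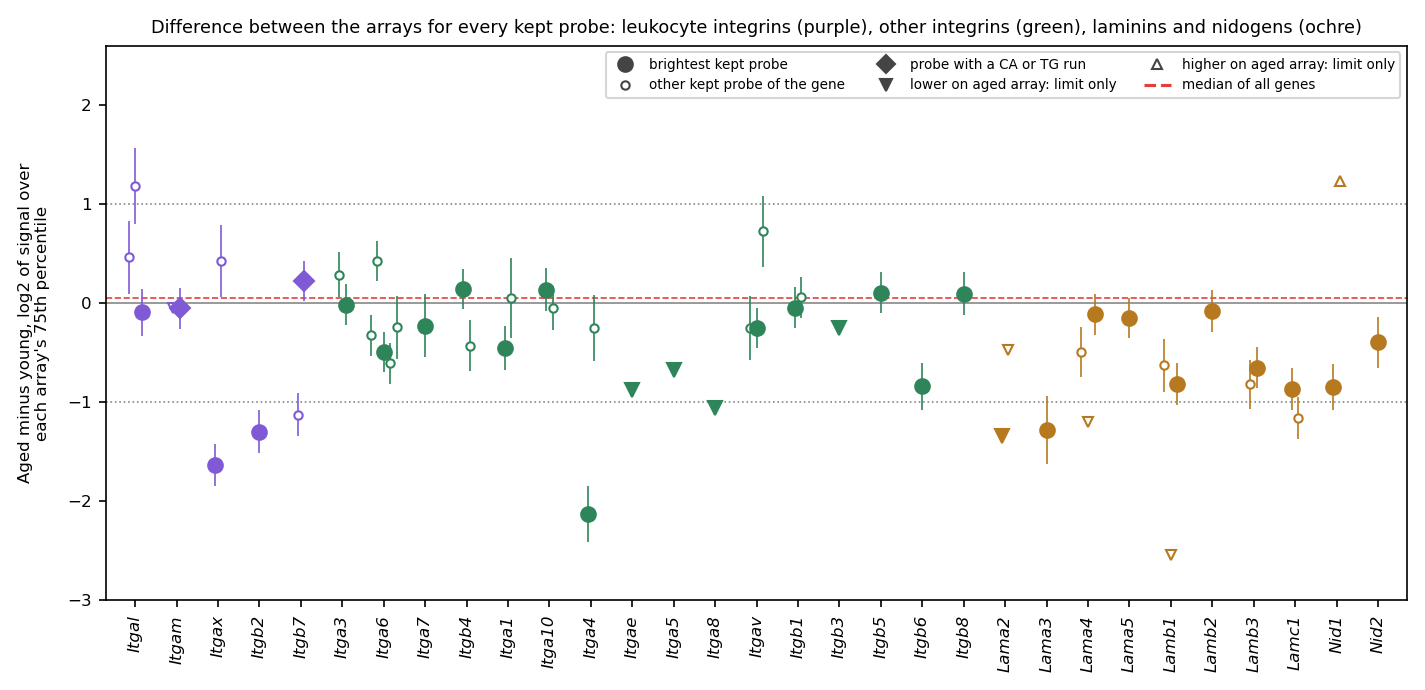
Aged minus young difference (log2 of signal over the 75th percentile of each array) for the kept probes of kept genes, with the propagated software error as bars, where large symbols are the brightest probe of a gene, diamonds are probes with a CA or TG run and triangles are limits drawn at the limit. The dotted lines mark 2-fold and the dashed line the median of all genes (0.06), and genes such as Itgb7, Itgal, Itgax and Nid1 have probes on both sides of 0.

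Probes with a CA or TG run of at least 10 bases were bright across the array. There were 270 of them, 0.477% of all probes. Their median signal was 1393 in the young sample and 1186 in the aged one, against 20.9 and 14.3 for the probes without a run. Of the probes with a run 89.3% were well above background on both arrays, against 47.1% of the others. In addition, they differed little between the ages. Of the 241 probes with a run that were well above background on both arrays, 1 was at least 2-fold lower (0.415%), against 2.83% of the others, and their median difference was 0.15 against 0.08. The values of Itgam and Itgb7 at such probes lay in this range, and the part of the run in them was not tested.

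**Figure D3:**
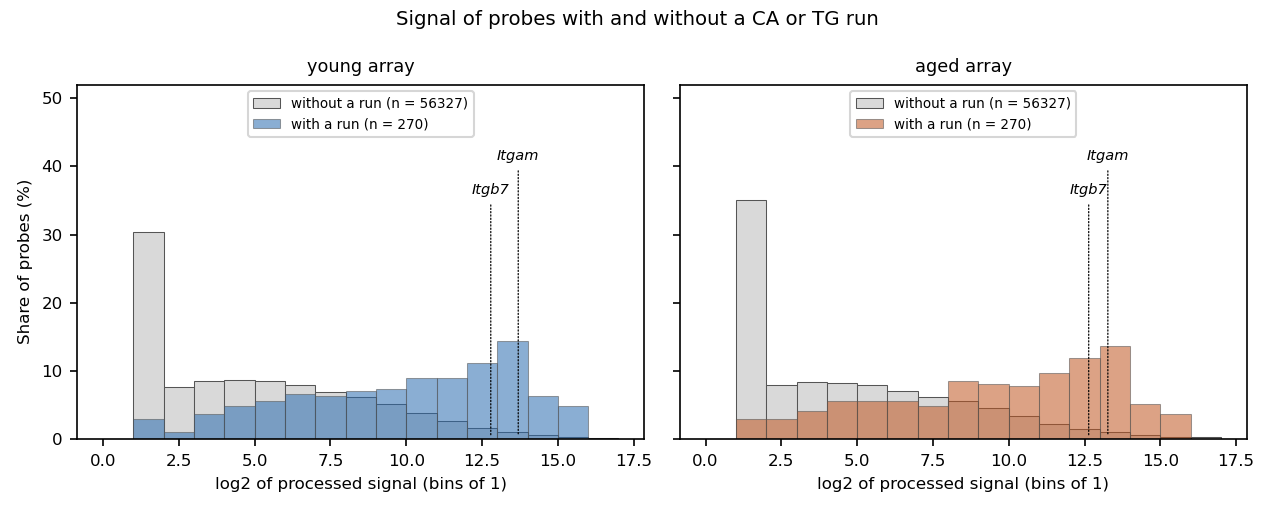
Share of probes (%) by log2 of processed signal in bins of 1 on the young (left) and the aged array (right), for 270 probes with a CA or TG run (coloured) and 56327 without (grey). The brightest probes of Itgam and Itgb7 (dotted lines) sit among the bright probes with a run, whose median signal was 1393 on the young array.

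With the brightest probe that holds no run in place of the brightest of all, a choice made after the values were seen, the median of the 5 leukocyte integrins was -1.13. Of the 5, 3 (Itgax, Itgb2 and Itgb7) were at least 2-fold lower, against 5.14% of all genes at their brightest probes. Itgal and Itgam gave no readable direction. With the brightest probe of a curated RefSeq mRNA, the median was -1.13 and the same 3 leukocyte integrins were at least 2-fold lower. That is no separate result, because both choices read the same probes of Itgax, Itgb2 and Itgb7. In both, the median was the value of Itgb7.

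Of 9 genes that leukocytes use to activate integrins, 8 were kept, 4 of them on the young array alone. Of the 8, 5 were at least 2-fold lower, against 5.14% of all genes, with Fermt3 and Dock2 by limit. Genes kept on the young array alone lean lower by how they were kept. Of the 4 measured on both arrays, 3 were at least 2-fold lower, against 3.05% of such genes, with a median of -1.43. The median of the 8 was -1.73 (-1.32 with limits in place of the dim values, and -0.49 with normexp). Apbb1ip, the RIAM adaptor that brings talin to integrins, was 160 in the young sample and 35.3 in the aged one, 3.50-fold lower. Cytip, a regulator of leukocyte adhesion, went from 396 to 88.3, which is 3.47-fold lower. A second Cytip probe of the same mRNA was dim, with 40.8 and 28.3 (difference -0.16). Fyb, the adaptor ADAP, was 2.08-fold lower.

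The kindlin of blood cells, Fermt3, was 62.0 on the young array and not well above background on the aged array, at least 3.36-fold lower. Dock2, a Rac activator of leukocytes, was at least 3.0-fold lower. Rasgrp2, an activator of Rap1 proteins, had a limit of 1.21-fold lower, and Parvg (gamma-parvin) was too dim for a limit. Rap1b, a small GTPase that many cell types express, differed by -0.06 and had the brightest probe of the list. Fermt2, the kindlin of epithelial and mesenchymal cells, differed by -0.11.

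Leukocyte markers were read beside these genes. Of 9 macrophage markers, 8 were at least 2-fold lower, against 5.14% of all genes. Among these 8 were Lyz2 (-1.91), Mrc1 (-1.88) and C1qc (-1.41). The summed level of the list, in units of the 75th percentile, was 148 in the young and 53.9 in the aged sample. A summed level is led by its brightest probes, here Lyz2 with 62.9% of the young sum, and is given beside the counts as a description. Of 6 dendritic cell markers 5 were kept, 3 of them on the young array alone. Of the 5, 3 were at least 2-fold lower, against 5.14% of all genes. Ccr7 was 6.44-fold and Cd209a at least 10.4-fold lower, and the summed level was 4.06 and 0.681. Of 6 pan-leukocyte markers, 4 were at least 2-fold lower, against the same 5.14%, with summed levels of 31.9 and 20.5. Lcp1, which had the brightest probe of that list, stayed within 2-fold, with a difference of -0.11. Its other kept probes, of the same curated mRNA, gave -0.06 and -0.11.

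Of 8 T cell markers, 2 were lower (Cd2 and, by limit, Cd3g), with summed levels of 11.02 and 12.8, of which Cd4 made 56.6% in the young sample. Of the 6 T cell markers kept, 3 lay above 0 (Cd3d 0.62, Cd3e 0.56 and Cd4 0.05), and the median was -0.01. Of 6 B cell markers 5 were kept, and 1 of these (Cd79b) was at least 2-fold lower, against 5.14% of all genes. Summed levels were 2.53 and 1.97. Of the 5 B cell markers kept, 3 lay below 0 and 2 above. The neutrophil list held 0 genes past 2-fold, with summed levels of 79.7 and 69.0, nearly all from Csf3r. Neither array measured the defining markers Cd8a, Cd5, Cd79a, Mpo, Cxcr2 and Xcr1 well above background.

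Ptprc (CD45), which all leukocytes carry, also gave values that depended on the probe, without a CA or TG run in its brightest probe. Its brightest probe, assigned to an Ensembl transcript, had 1468 and 979 (difference -0.21), while the brightest probe of the curated mRNA had 368 and 98.7 (difference -1.53). RNA of leukocyte genes was thus measured in the EpCAM-selected cells at both ages. In RNA from many cells, fewer cells of a type and less RNA per cell cannot be told apart, and the part of leukocyte number in the integrin values was not tested.

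Most counter-receptors of leukocyte integrins on other cells stayed within 2-fold. Of 11 such genes 9 were kept, with a median of -0.18. The junction protein Jam3 was the member past 2-fold, 2.67-fold lower (108 in the young sample and 31.3 in the aged one). F11r, another junction protein and the list's brightest probe, differed by -0.18.

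Among the 21 other integrins, 16 were kept, 4 of them on the young array alone, with a median of -0.25. Of the 16, 2 were at least 2-fold lower, against 5.14% of all genes. Over the 12 measured on both arrays the median was -0.14, with 1 at least 2-fold lower, against 3.05% of all such genes. These genes fell into laminin-binding, collagen-binding, RGD-binding and beta chains, and chains shared with leukocytes.

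Chains that bind laminin were measured on both arrays and did not reach 2-fold. Itga6, the alpha 6 chain of basal epithelial cells, had 9879 ± 988 in the young sample and 5419 ± 542 in the aged one, a difference of -0.49 ± 0.20. Its 5 kept probes ranged from -0.61 to 0.42, and the 0.42 was that of a probe of a separate Ensembl transcript. The other probe of the curated mRNA, with 3005 and 1524, gave -0.61.

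Itgb4, the partner of alpha 6 in hemidesmosomes, had 3212 in the young sample and 2737 in the aged one, a difference of 0.14 ± 0.20. Itga3 had 252 and 193 (difference -0.02 ± 0.21). Itga7, the laminin receptor of muscle, had 40.4 and 26.7 (difference -0.23 ± 0.32). At these probes the values of Itgb4, Itga3 and Itga7 lay within the software's error. A second, dimmer Itgb4 probe of another transcript, with 58.0 and 33.3, gave -0.43 ± 0.26. A second Itga3 probe of the same mRNA, with 80.9 and 76.3, gave 0.29 ± 0.23. With quantile normalization, Itga6 was at -0.93 and Itgb4 at -0.08. The gap between Itga6 and its partner Itgb4 thus depended on probe and scaling, and it was not tested.

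The 6 genes of the hemidesmosome list were kept and 0 passed 2-fold, with a median of 0.13. Cd151, a tetraspanin that binds laminin-binding integrins, had 3669 and 3369 (difference 0.25). Other laminin receptors, 8 of 9 kept, had a median of 0.09 and 0 past 2-fold. Rpsa, a ribosomal protein also known as a laminin receptor, differed by 0.73.

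Of the chains that bind collagen, Itga1 had 110 in the young sample and 61.9 in the aged one (difference -0.45 ± 0.22). A second, dim Itga1 probe of the same mRNA, with 22.3 and 17.8, gave 0.05 ± 0.40. Itga10 had 110 and 93.2 (difference 0.13 ± 0.22). Neither array measured Itga2 or Itga11 well above background.

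Itga4, the alpha 4 chain of lymphocytes and monocytes and partner of beta 1 and beta 7, had 150 ± 15.4 in the young sample and 26.5 ± 4.38 in the aged one. It was 4.36-fold lower in the aged sample (difference -2.13 ± 0.28), the lowest measured difference among members well above background on both arrays. Its other kept probe, assigned to another transcript, had 30.8 and 19.9 (difference -0.25 ± 0.33). Itgae, the alpha E chain (CD103) of lymphocytes within epithelia, had 34.0 ± 5.01 on the young array and was not well above background on the aged array, at least 1.84-fold lower.

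Of the RGD-binding alpha chains, Itga8, a receptor of mesenchymal cells, had 38.4 ± 4.77 on the young array and was at least 2.08-fold lower. With arrays centred on their medians, with quantile normalization or with normexp, Itga8 did not reach 2-fold. Itga5, the fibronectin receptor chain, had 29.5 ± 4.56 on the young array and was at least 1.60-fold lower. Itgav, the alpha V chain, had 759 and 492 (difference -0.25 ± 0.20). Its other kept probes, dim and assigned to other transcripts, gave -0.25 ± 0.32 and 0.72 ± 0.36.

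The beta chains were measured on both arrays apart from Itgb3. Itgb1, the partner of most alpha chains, had 2468 in the young sample and 1849 in the aged one (difference -0.04 ± 0.20). Itgb5 had 2816 and 2342 (difference 0.11 ± 0.20), and Itgb8 had 111 and 91.3 (difference 0.09 ± 0.22). Itgb6, an epithelial chain that activates TGF-beta, was the lowest of them, with 102 ± 10.7 and 43.9 ± 5.52 (difference -0.84 ± 0.24). Itgb3, of platelets and vessels, had 22.9 on the young array and was at least 1.19-fold lower.

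Most genes for proteins that connect integrins to the cytoskeleton stayed within 2-fold. Of 23 genes 22 were kept, with a median of -0.10. Flna (filamin A), an actin crosslinker, was 2.12-fold lower, with 1499 in the young sample and 547 in the aged one. A second, dim Flna probe had 27.1 and 28.4 (difference 0.44). Parvb (beta-parvin) was at least 13.2-fold higher at a probe of an Ensembl transcript, with 144 on the aged array and 9.98, not well above background, on the young array. Neither array measured a Parvb probe of the curated mRNA well above background. Tln1 (talin), which binds integrin beta tails, differed by -0.10.

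Laminins and nidogens were the members that lay most evenly to one side. Of the 13 genes 11 were kept, and the differences of these 11 ranged from -1.45 to -0.08, with a median of -0.65. Relative to the median of all genes, 11 of 11 were lower with the scaling used here and with loess, quantile normalization and normexp. Centring on the median, the other 75th percentile and spike-in controls shift every gene alike and cannot change that count. On the scale itself, 8 of 11 lay below 0 with arrays centred on their medians, where Lama4, Lama5 and Lamb2 turned above 0, and 11 of 11 lay below 0 under the others. Past 2-fold were 2 of 11, against 5.14% of all genes.

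Lama3, the alpha 3 chain of an epithelial laminin, had 50.8 ± 5.87 in the young sample and 16.2 ± 3.36 in the aged one, 2.42-fold lower (difference -1.28 ± 0.34). Lamb3, its beta partner in that trimer, had 281 ± 28.3 and 138 ± 14.3 (difference -0.65 ± 0.21). Both chains were thus lower, Lama3 alone past 2-fold and from a signal near the background of the aged array. A second Lamb3 probe gave -0.82 ± 0.25.

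Lama2, the alpha 2 chain of muscle and stromal basement membranes, had 46.8 ± 5.68 on the young array and was at least 2.53-fold lower. A second Lama2 probe was at least 1.39-fold lower. Lama4, the alpha 4 chain of vessel and stromal basement membranes, depended on the probe. Its brightest probe, of an Ensembl transcript, had 1202 and 858 (difference -0.11 ± 0.20), the probe of the curated mRNA had 60.97 and 33.4 (difference -0.50 ± 0.25), and the remaining kept probe was at least 2.30-fold lower. Lama5, the alpha 5 chain of adult epithelia and vessels, had a single probe with 954 and 665 (difference -0.15 ± 0.20).

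The chains shared by many laminins were lower by less than 2-fold at their brightest probes. Lamb1 had 210 ± 21.3 in the young sample and 92.3 ± 9.80 in the aged one (difference -0.82 ± 0.21). Its other kept probes gave a difference of -0.63 ± 0.27 and, at 107 on the young array alone, a limit of 5.82-fold lower. Lamc1, the gamma chain of most laminins, had 215 ± 21.7 and 91.0 ± 9.60 (difference -0.87 ± 0.21).

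Lamc1 had a second probe that shares a stretch of 55 bases with the first, and its start is in capitals below (chr1:155066154-155066213 for the brightest and chr1:155066156-155066215 for the other, minus strand). This probe had 215 and 74.5, a difference of -1.16 ± 0.22, so that the count of laminins past 2-fold turned on which of these overlapping probes was read.
Lamc1, brightest probe, bases 1 to 30: TGTGGCCCTTTTCAATGTGCCTTCACTTTA
Lamc1, other probe, bases 1 to 30: acTGTGGCCCTTTTCAATGTGCCTTCACTT

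Lamb2, the beta chain of mature vessel and neuromuscular laminins, had 208 and 152, the smallest difference of the laminins (-0.08 ± 0.21). Nid1, the main nidogen of basement membranes, had 121 ± 12.7 in the young sample and 52.2 ± 6.34 in the aged one (difference -0.85 ± 0.23). A second Nid1 probe, of an Ensembl transcript, went the other way, with 25.5 on the aged array and 8.99, not well above background, on the young array, at least 2.34-fold higher. Nid2 had 57.0 ± 6.52 and 33.5 ± 4.63 (difference -0.40 ± 0.26).

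Of 20 other basement membrane genes 16 were kept, with a median of -0.30. Of the 16, 2 were at least 2-fold lower, against 5.14% of all genes. Col4a1, a chain of type IV collagen, had 263 and 101 and was at the 2-fold threshold (difference -1.004 ± 0.21). Sparc, a collagen-binding matrix protein, had 4158 and 1510 and was 2.13-fold lower. Col7a1, the anchoring fibril collagen with the brightest probe of the list, differed by -0.02.

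Of 16 matrix ligands of integrins 12 were kept, with a median of -0.10 (0.00 with limits in place of the dim values). Fn1 (fibronectin), the ligand of alpha 5 and alpha 4 integrins, had 1259 in the young sample and 224 in the aged one, 4.35-fold lower. Postn (periostin), a stromal matrix protein, was at least 2.22-fold lower. Mfge8, a ligand of alpha V integrins, differed by 0.16.

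Markers of cells that lie outside the epithelium went different ways. Of 6 fibroblast markers 4 were at least 2-fold lower, against 5.14% of all genes. These were Col1a1, Col1a2, Col3a1 and, by limit, Pdgfra. The summed level of the list was 18.6 in the young and 8.70 in the aged sample. Of 7 endothelial markers 0 passed 2-fold, with a median of -0.55 and summed levels of 6.21 and 4.31. The pericyte list had 0 genes past 2-fold and summed levels of 1.40 and 1.77. The platelet marker Pf4 was 3.60-fold lower and Gp9 higher by limit, with summed levels of 5.06 and 1.59.

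Among 8 myoepithelial and basal markers, 2 were at least 2-fold lower, against 5.14% of all genes. The contractile genes Myh11 and Cnn1 were 3.55-fold and 4.39-fold lower, and the other 6 did not reach 2-fold. Of the latter, the contractile genes Mylk and Acta2 differed by -0.97 and -0.08, and Trp63, the regulator of basal cells, by 0.29. Summed levels of that list were 68.0 and 75.8, with 61.5% of the young sum from Trp63. Epithelial markers were present at both ages, with 0 of 6 past 2-fold and summed levels of 494 and 552, and Epcam had 1778 in the young sample and 1573 in the aged one (difference 0.20). Of the acinar markers Smgc was 3.45-fold lower, with summed levels of 1937 and 2554, and of the granular duct markers 0 passed 2-fold, with 988 and 917. The part of fibroblasts, vessels or myoepithelial cells in the laminin values was not tested.

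**Figure D4:**
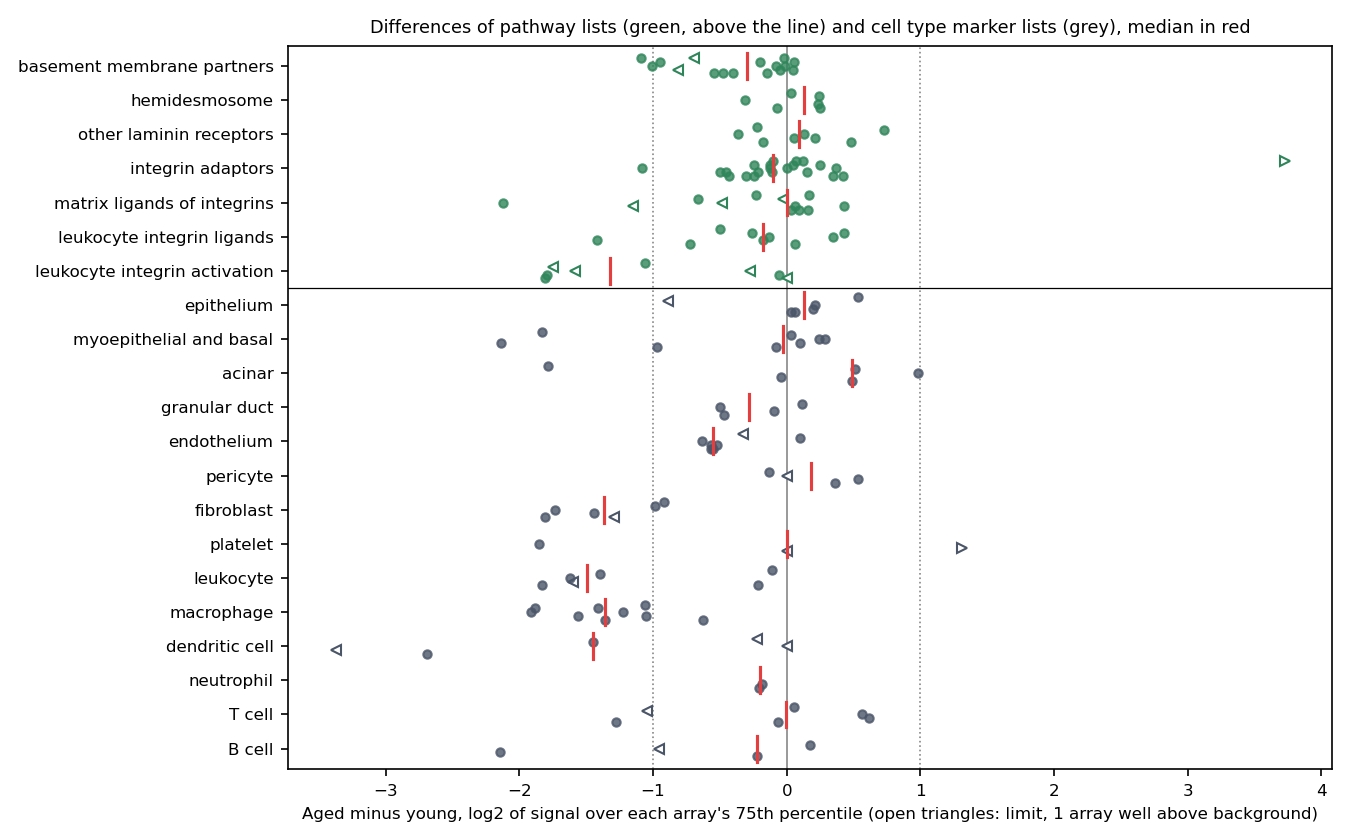
Aged minus young difference (log2 of signal over the 75th percentile of each array) of kept genes of 7 pathway lists (green) and 14 marker lists (grey), with open triangles at the limit where 1 array alone was well above background and red bars at the median with limits. The leukocyte integrin activation, macrophage, dendritic cell, pan-leukocyte and fibroblast lists have medians below -1, and the hemidesmosome list has a median of 0.13.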

How the data were processed

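Cy3-labelled RNA of 1 young and 1 aged sample was hybridised to Agilent SurePrint G3 mouse arrays on the same slide. The deposited files hold spot intensity from Feature Extraction 12.0.3.1, background-subtracted and detrended by the authors' image software with no scaling between arrays. The authors' processed table holds the same values as a ratio to 1 constant per array (229 for the young, 176 for the aged array), made with GeneSpring per the methods, with column medians of 0.092 and 0.082. Each column followed its array's intensity, so the table was linear, not centred across genes and of known direction.

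Each intensity was divided by its array's 75th percentile (59305 spots, controls left out) and taken to log2. Outlier spots (90 and 93) were left out, 0 spots were saturated, and spots of a probe were averaged. Spots well above background made up 55.4% of the young and 50.8% of the aged array. Probes with 10 spots had a median SD of 0.034 (log2, 294 probes). Only 2 arrays limit the precision. Errors came from the software's error model, propagated to the difference.

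Members and lists were chosen with earlier results of these data known. Members were named, except 1 member and 1 marker gene that are not reported here and stay in counts, medians and sums, with the 2-fold and brightest genes of each list, and Fermt2 and Ptprc were named after their values were seen. Gene symbols were updated from RefSeq accessions for 33767 probes. Alternatives used limma 3.58.1 in R 4.3.3 for loess (span 0.7), quantile and normexp (offset 50), and Python 3.11.15 with numpy 2.4.6, pandas 2.3.3 and matplotlib 3.10.9 for the rest. Krt5, Krt14 and Cdh1 stand in a pathway list and a marker list. The scripts were tested on simulated data.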

Additional observations from a re-analysis of the deposited data

How the results depend on the processing

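With 1 array per age, precision is limited by the missing replicates and, for dim probes, by signal over background. The 6 members at least 2-fold lower were the same genes with the authors' table, with outlier spots kept, and with dim values raised to the floor of their array. These settings could hardly change the list and are no check of it. The authors' table holds the same values over 1 constant per array, 0 outlier spots belonged to members, and the limits already put the floor in place of dim values. The 6 were also the same with the 75th percentile over probes detected on both arrays. The count was 11 with the level set on spike-in controls, 10 with no filter on dim probes and 1 (Itgax) with normexp, whose offset of 50 shrinks differences of dim probes. Itga8 no longer reached 2-fold with median centring and with quantile normalization. With the second brightest probe, Itga4 (-0.25) and Lama2 (limit 1.39-fold) did not reach it, 1 member (Nid1) was higher and Itgax turned to 0.42. Itgb7 and Lamc1 were then at least 2-fold lower. With the average of kept probes, Itgax and Lama2 did not reach 2-fold, while Lama4, Lamb1 and Lamc1 did, each of them lower.

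Among all genes, 1098 were lower and 539 higher. These counts became 2416 and 1685 with no filter, 297 and 182 with normexp, and 572 and 285 with probes well above background on both arrays. The higher genes became 348 with spike-in controls and 291 with the RefSeq mRNA probe. The median of the leukocyte integrins became -0.45 with the average of kept probes, -0.50 with loess, -0.61 with quantile normalization, -0.34 with the second brightest probe, -0.35 with spike-in controls, and -1.13 with the probe of a RefSeq mRNA and with the probe without a run.

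Spike-in controls moved the median of all genes to -0.20, and with it the medians of laminins and nidogens (-0.91), other integrins (-0.51), basement membrane partners (-0.56), hemidesmosome (-0.13), integrin adaptors (-0.36), other laminin receptors (-0.17), leukocyte integrin activation (-1.99), leukocyte integrin ligands (-0.44) and matrix ligands (-0.35). Normexp gave -0.29 for laminins and nidogens and -0.49 for leukocyte integrin activation. The latter was -1.31 with the average of kept probes, -1.32 with dim values raised, -1.43 with both arrays required and -1.19 with the second brightest probe. Hemidesmosome genes were at -0.14 with loess and -0.11 with the second brightest probe, other laminin receptors at -0.18 with loess, and matrix ligands at -0.43 with the average and -0.42 with the second brightest probe. Beyond the sources that a setting's construction gives, the cause was not tested. The probes of a RefSeq mRNA and those without a run were chosen after seeing the data. No paired analysis was possible because each age had 1 array, and the slide as a block and leaving out a replicate were not run for the same reason.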
